A study of Huso dauricus with 9 samples.

Results

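A set of 4 blood plasma protein genes, usually transcribed in the liver, is described here in the gut of the kaluga sturgeon: FGA, FGB and FGG, which encode the alpha, beta and gamma chains of fibrinogen, and HPX, which encodes hemopexin. They were found by their Swiss-Prot or KEGG gene names in the annotation and gave 5 of the 59331 assembled transcripts, 2 of them for FGA. The genes were chosen by their transcript levels in these same libraries, so their differences between groups are given as a description. Where rows past a threshold of the fit over all transcripts are counted among them, nothing is read from that count.

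The data are poly(A) RNA-seq of intestine from 9 kaluga sturgeon (Huso dauricus), from a release of dye-marked fish into a river for stock enhancement. Ori is the group of 3 fish at day 0, D14FL that of 3 fish recaptured at day 14, and D30FL that of 3 fish recaptured at day 30. Each fish gave 1 library, and the labels name neither age nor sex. The groups differ in date as well as in time since release, and no unreleased fish of the later dates were analysed here. Time, release, recapture, season, diet and library preparation therefore cannot be told apart.

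Fibrinogen is secreted by hepatocytes as a molecule built of paired alpha, beta and gamma chains. Thrombin clips the alpha and beta chains to start clotting, and the gamma chain carries sites at which factor XIII cross-links the clot. Hemopexin binds free heme in plasma and delivers it to liver cells. In mammals all of these genes are acute phase genes, raised in liver by interleukin-6 signalling, and a teleost form of hemopexin is known as a warm temperature acclimation protein.

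Values are the authors' FPKM, which are scaled to transcript length and library size, so levels of different transcripts are on a per-length scale. The read depth is unknown, and between 35812 and 49503 transcripts per library reached an FPKM of 1. Of 15 enterocyte markers, which check the gut label, 13 were matched, none of these was listed at 0 in any library, and their summed FPKM lay between 2084 and 6869. Because the libraries are bulk tissue, fewer cells of a type and less RNA per cell cannot be told apart.

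The main FGA transcript (TRINITY_DN29919_c0_g2_i2_1) best matched the fibrinogen alpha chain of the sterlet, Acipenser ruthenus, and carries the Pfam domain of the fibrinogen coiled coil. Its FPKM was 3.42, 2.85 and 1.91 in Ori fish 1, 2 and 3. It was 10.3, 7.71 and 2.83 in the D14FL fish and 1.35, 4.16 and 1.69 in the D30FL fish. D14FL 1 and 2 stood above all other fish, while D14FL 3 lay within the Ori range and D30FL 2 lay above it.

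FGB, the beta chain (TRINITY_DN31510_c0_g1_i2_1), holds both the coiled coil and the fibrinogen C-terminal domain. Its FPKM was 3.55, 2.70 and 1.23 in Ori, 9.92, 8.22 and 3.10 in D14FL, and 1.53, 4.57 and 1.51 in D30FL. The fish fell in nearly the same order as for FGA. D14FL 1, D14FL 2 and D30FL 2 were again the highest 3.

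FGG, the gamma chain (TRINITY_DN17075_c0_g1_i1_2), holds the same pair of domains and best matched the spotted gar, Lepisosteus oculatus. Its FPKM was 4.87, 3.76 and 2.42 in Ori, 13.3, 9.72 and 2.21 in D14FL, and 1.64, 2.00 and 1.85 in D30FL. All 3 D30FL fish lay below all 3 Ori fish and below all 3 D14FL fish. D30FL 2, which was among the highest 3 fish for FGA and FGB, was among the lowest 3 for FGG.

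HPX (TRINITY_DN29311_c0_g1_i2_2), with the hemopexin repeat in Pfam, best matched sterlet hemopexin. Its FPKM was 6.19, 4.25 and 3.18 in Ori, 13.2, 8.92 and 2.88 in D14FL, and 1.43, 1.58 and 2.17 in D30FL. As for FGG, no D30FL fish reached the lowest fish of either other group. D14FL 3, at 2.88, was below every Ori fish, as it was for FGG.

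A second FGA transcript (TRINITY_DN29919_c0_g1_i1_1) carries the fibrinogen C-terminal domain and not the coiled coil. In birds and mammals an extended form of the alpha chain has such a domain at its end. Whether this row and the main one come from 1 gene cannot be told from the table. Its FPKM was 1.36, 0.669 and 0.559 in Ori, 3.48, 1.77 and 0.753 in D14FL, and 0.476, 0.577 and 0.213 in D30FL. It was between 0.126 and 0.399 times the main row, lowest in D30FL 3 and highest in Ori 1. Its fish order again began with D14FL 1 and D14FL 2. It reached an FPKM of 1 in Ori 1, D14FL 1 and D14FL 2 alone, the fewest libraries with which a transcript was tested.

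**Figure D1:**
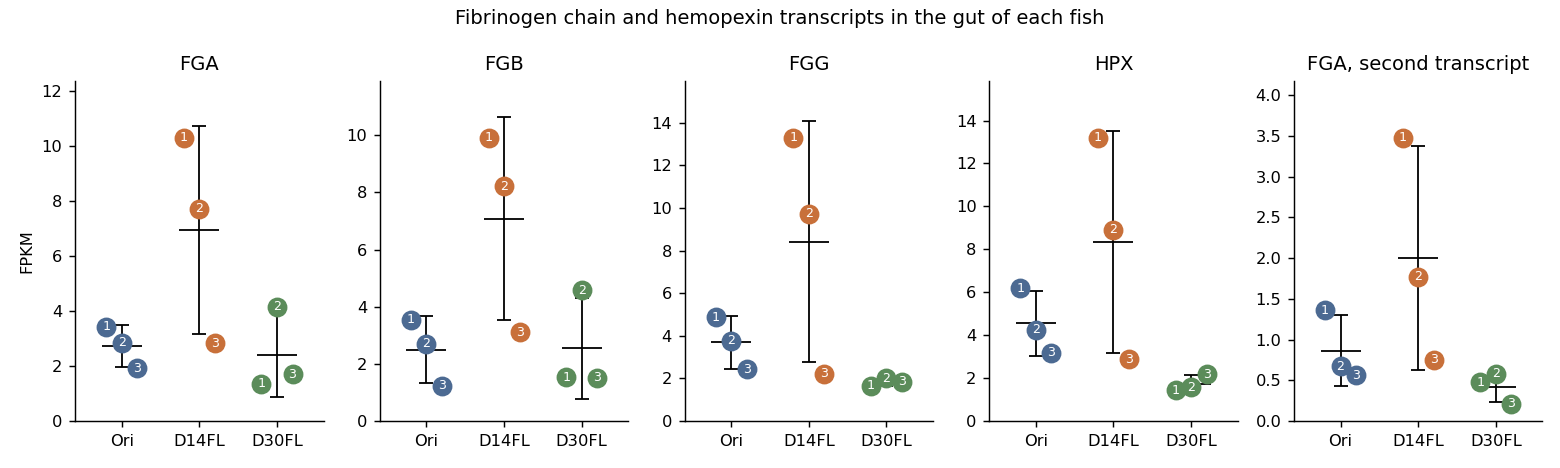
FPKM of the 5 transcripts (y axis, one panel each with its own scale) in the 3 fish of each group (x axis). Numbers in the points name the fish, the long bar is the group mean and the whiskers are 1 SD. D14FL 1 and 2 are the highest fish in every panel, and the D30FL fish sit below both other groups for FGG and HPX.

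All 5 transcripts were present at low to middling levels for this table. The mean FPKM over the 9 libraries was 4.03 for FGA, 4.04 for FGB, 4.64 for FGG and 4.87 for HPX. These means lay above those of between 57.1% and 62.8% of the 54200 tested transcripts, while the second FGA row, at 1.10, lay above 9.12%. The order from HPX down to FGA is within the spread between fish.

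The group means followed the fish. FGA was at 2.72 ± 0.761 FPKM in Ori, 6.95 ± 3.81 in D14FL and 2.40 ± 1.53 in D30FL (SD, n = 3 each). FGB was at 2.49 ± 1.17, 7.08 ± 3.55 and 2.54 ± 1.76. D14FL had the widest spread for both, with D14FL 3 below the other two fish.

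FGG was at 3.68 ± 1.23, 8.40 ± 5.66 and 1.83 ± 0.179 FPKM in the same order of groups. HPX was at 4.54 ± 1.53, 8.34 ± 5.19 and 1.73 ± 0.392. For both, D30FL had the lowest mean and the smallest SD. The second FGA row was at 0.864 ± 0.436, 2.00 ± 1.38 and 0.422 ± 0.188.

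Between D14FL and Ori, the mean of all 5 rows was higher in D14FL, by a ratio of 1.84 for HPX to 2.84 for FGB. The comparison was fitted with limma on log2(FPKM + 1), a scale that understates changes of low transcripts. The median tested transcript was itself 0.38 higher in D14FL and 0.37 higher in D30FL than in Ori on that scale, so differences are given relative to it. FGA was 0.59 higher in D14FL (SE 0.48), FGB 0.77 (SE 0.50), FGG 0.40 (SE 0.52), HPX 0.21 (SE 0.48) and the second FGA row 0.22 (SE 0.43). The D14FL and Ori fish overlapped for every row: none of the 5 had all D14FL fish above all Ori fish, where 27.8% of tested transcripts did. Leaving out D14FL 1 took the FGG difference to 0.003 and that of HPX to -0.16. Leaving out D14FL 3 took them to 1.05 and 0.75, and those of FGA and FGB to 1.05 and 1.20.

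Between D30FL and Ori, FGG and HPX were lower in D30FL. FGA and FGB differed by only -0.20 and -0.03 before the shift of the median transcript was subtracted. Relative to the median transcript, FGA was lower by a difference of -0.57 (SE 0.48) and FGB by -0.40 (SE 0.50). FGG differed by -1.07 (SE 0.52), HPX by -1.37 (SE 0.48) and the second FGA row by -0.75 (SE 0.43). In linear terms the D30FL mean was 0.497 times the Ori mean for FGG and 0.380 times for HPX, against 0.880 for FGA and 1.02 for FGB. For 2 of the 5 rows, FGG and HPX, all D30FL fish lay below all Ori fish, which was so for 6.14% of tested transcripts. With median-of-ratios or quantile scaling of the libraries the count was 3, with the second FGA row added. The share of all tested transcripts under those scalings was not determined, and the 6.14% does not stand for it. Without Ori 1 the FGB difference was -0.11.

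Between D30FL and D14FL, all 5 rows had lower means in D30FL. The D14FL mean was 2.90 times the D30FL mean for FGA, 2.79 times for FGB, 4.59 times for FGG and 4.83 times for HPX. The log2 differences relative to the median transcript were -1.17 for FGA (SE 0.48), -1.18 for FGB (SE 0.50), -1.48 for FGG (SE 0.52), -1.59 for HPX (SE 0.48) and -0.98 for the second FGA row (SE 0.43). For 3 of the 5, FGG, HPX and the second FGA row, the D30FL fish lay wholly below the D14FL fish, where 4.46% of tested transcripts did. The second FGA row passed the filter only through Ori 1, D14FL 1 and D14FL 2, so its place in this count was partly fixed beforehand. With quantile scaling the FGG groups overlapped.

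**Figure D2:**
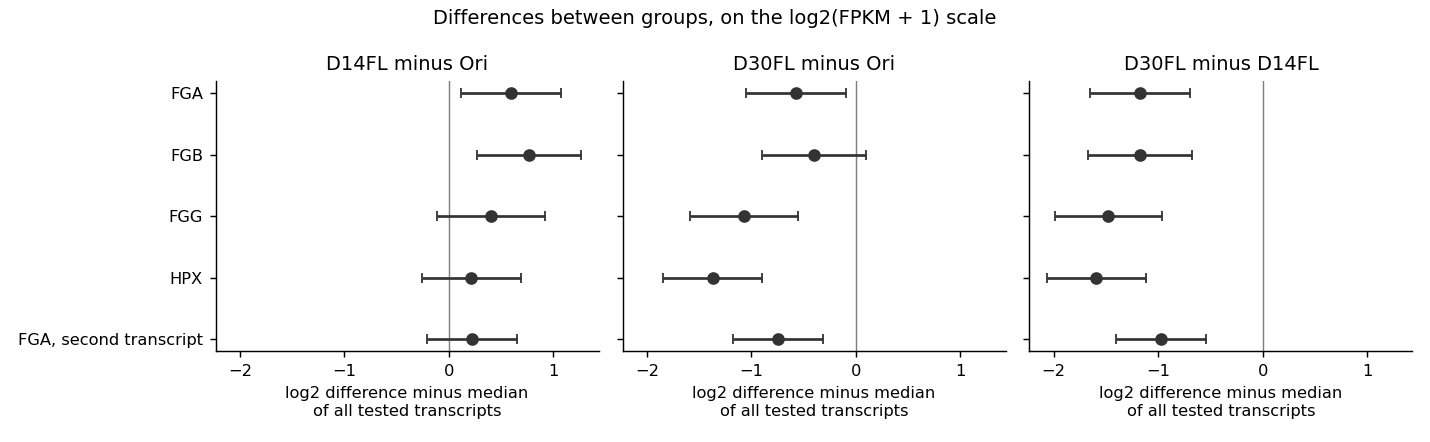
Differences between groups (x axis, log2(FPKM + 1) units, minus the median of all tested transcripts) for the 5 transcripts (y axis), one panel per comparison. Points are estimates from the fit over 9 libraries and whiskers are 1 SE. The points lie right of 0 for D14FL minus Ori, with the whiskers of FGG, HPX and the second FGA transcript crossing 0, and left of 0 for D30FL minus D14FL.

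No member row passed limma's threshold, an adjusted p under 0.05 over all 54200 transcripts, in any comparison. The background of calls in D14FL minus Ori was 2.17% higher and 0.6% lower, and in D30FL minus Ori 2.49% higher and 0.732% lower. In D30FL minus D14FL it was 0% higher and 0.00185% lower, which is 1 transcript. The unadjusted p was under 0.05 for 1 member row (FGB) in D14FL minus Ori and for none in D30FL minus Ori, where 23.1% and 24.0% of all tested transcripts had such a p. In D30FL minus D14FL it was so for all 5, each lower in D30FL. Of tested transcripts 3.84% had such a p, and 2.19% had it and were lower. The rows were chosen by their levels in these libraries and resemble each other over the fish, so nothing is read from that count. The split of calls between directions depends on scaling: with the FPKM as deposited 78.3% of the D14FL minus Ori calls and 77.3% of the D30FL minus Ori calls were higher, and with median-of-ratios scaling 40.4% and 43.0%.

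Within a fish the fibrinogen chains kept their proportions to different degrees. The FGA to FGB ratio of FPKM stayed between 0.880 and 1.55 and was above 1.12 in Ori 3 alone. Pearson's r of their log2 values over the 9 libraries was 0.982. FGG and HPX formed the other close pair, with r of 0.975 and a ratio of HPX to FGG between 0.789 and 1.31. Across the pairs likeness was lower, with r of 0.764 for FGB and HPX, the lowest of the 10 pairs of rows. These correlations are descriptions over 9 points that share the same libraries.

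The FGG to FGB ratio was 1.37, 1.39 and 1.96 in the Ori fish, 1.34, 1.18 and 0.713 in D14FL, and 1.07, 0.437 and 1.22 in D30FL. Every Ori fish lay above every later fish. HPX to FGB gave 1.75, 1.58 and 2.58 in Ori, 1.33, 1.09 and 0.931 in D14FL, and 0.933, 0.345 and 1.43 in D30FL, and the Ori fish again lay above the rest. D30FL 2 held the lowest value of both ratios, since its FGA and FGB were raised beside the other D30FL fish and its FGG and HPX were not. These ratios were singled out after their values were seen.

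**Figure D3:**
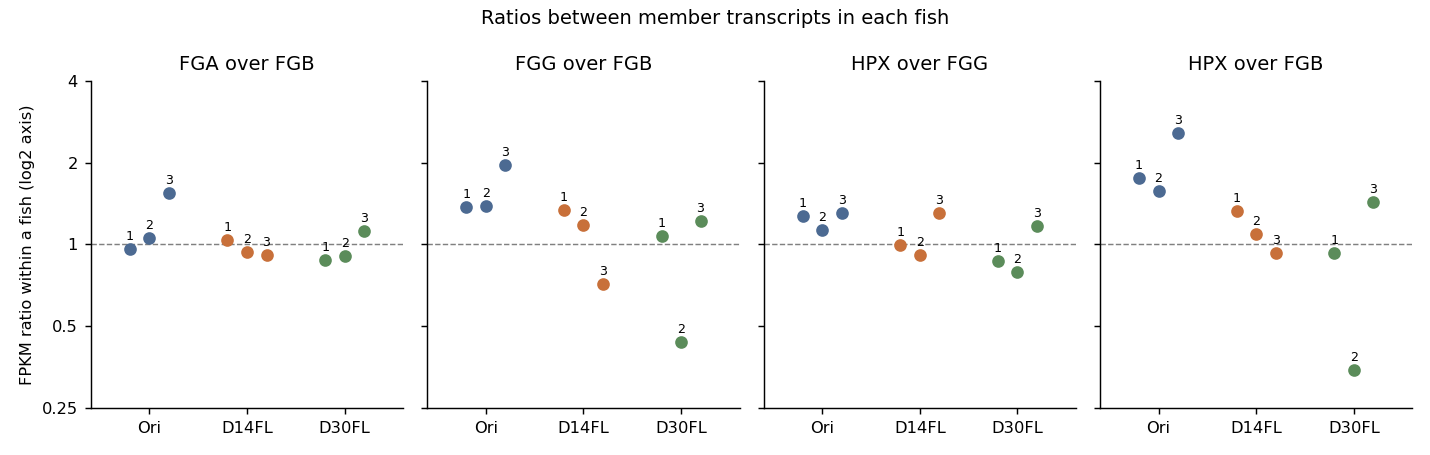
Ratio of FPKM between member transcripts within each fish (y axis, log2 scale) by group (x axis), one panel per ratio, with fish numbers beside the points and a dashed line at 1. FGA over FGB stays near 1, while FGG over FGB and HPX over FGB are above all later fish in Ori and lowest in D30FL 2, at 0.437 and 0.345.

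The transcripts whose levels most resembled the fibrinogen chains over the 9 fish included several other plasma proteins. Of 21372 tested transcripts with a Swiss-Prot gene name, 14 had r of at least 0.9 with the mean z-score of FGA, FGB and FGG. The 10 nearest included serotransferrin-2, an iron carrier (r = 0.928), apolipoprotein C-II, a cofactor of lipoprotein lipase (r = 0.914), and a complement factor H-related protein (r = 0.947). They also included APOH, beta-2-glycoprotein 1 (r = 0.907), and cubilin, an endocytic receptor (r = 0.93). Apolipoprotein C-II stood at 31.4 and 26.9 FPKM in D14FL 1 and 2, at 10.2 in D14FL 3, at 4.20 to 10.2 in Ori and at 4.08 to 15.5 in D30FL. Cubilin stood at 39.9 and 25.4 in D14FL 1 and 2 and at 0.482 to 3.5 in the other 7 fish. The remaining ones were the chromatin factor SGF29, the kinase MARK1, BABA2 and 2 rows with mammalian best matches.

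The 5 nearest to HPX were led by ITIH2, a heavy chain of inter-alpha-trypsin inhibitor, a plasma protein that binds hyaluronan (r = 0.987). Alpha-1-antitrypsin, the plasma inhibitor of elastase, was also among them (r = 0.938), at 6.15, 5.60 and 2.87 FPKM in Ori, 14.3, 10.3 and 5.29 in D14FL, and 2.10, 1.35 and 3.99 in D30FL. The others were the glucose transporter SLC2A8, BTBD2 and the receptor AGRG4. What all these transcripts share with the members is a high level in D14FL 1 and 2, and each r rests on 9 points. The ITIH2 row among them was low, at 0.326 to 2.81 FPKM. Another ITIH2 row, of higher mean, was not high in D14FL 1 and 2. It was at 2.6, 3.63 and 3.74 in Ori, 1.57, 2.07 and 2.79 in D14FL, and 1.88, 1.7 and 0 in D30FL.

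**Figure D4:**
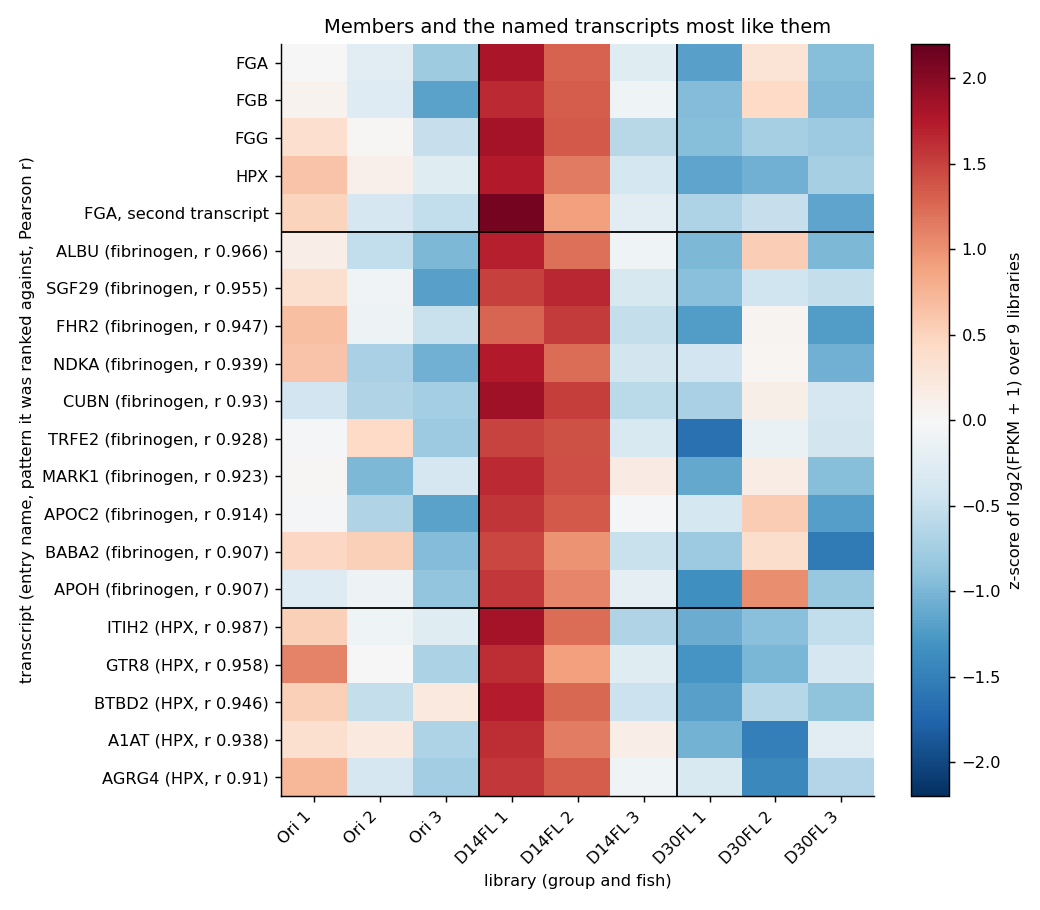
Z-scores of log2(FPKM + 1) over 9 libraries (colour) for the 5 member transcripts (top block) and the 10 and 5 named transcripts ranked nearest to the fibrinogen chains and to HPX (lower blocks), with fish on the x axis. The D14FL 1 and 2 columns are red throughout, D14FL 3 is near or below the middle, and D30FL 2 is warmer for several fibrinogen-like rows than for HPX-like rows.

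The nearest transcript to the fibrinogen chains was an albumin row whose best protein match is mouse albumin (r = 0.966), at 4.12 and 2.78 FPKM in D14FL 1 and 2 and listed at 0 in Ori 3, D30FL 1 and D30FL 3. In all, 54 rows had a mouse best match, and their summed FPKM was 21.8 to 28.3 in Ori, 140 to 253 in D14FL and 84.9 to 147 in D30FL, highest in D14FL 1 and 2. The member rows themselves matched sturgeon or gar proteins. The sturgeon albumin row stood at 6.40, 3.06 and 1.52 in Ori, 15.0, 13.4 and 2.87 in D14FL, and 4.49, 3.17 and 4.22 in D30FL. The part of these rows in the members' levels was not tested.

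Of the other liver-type plasma proteins, 33 of 46 were matched by symbol, which left out the alpha-1-antitrypsin row above (SERPINA1), and 30 were tested. Their median difference relative to all transcripts was 0.12 in D14FL minus Ori, -0.40 in D30FL minus Ori and -0.46 in D30FL minus D14FL, and 22 of 30 lay below 0 in the last. Enterocyte markers stood lower in that comparison too, with a median of -0.58 and 12 of 13 below 0, and their part in these values was not tested. Of the tested plasma proteins, 1 was called in limma, APOC1, an apolipoprotein of chylomicrons and HDL. It rose in D30FL against Ori from 124 ± 59.7 to 598 ± 265 FPKM (limma, adjusted p = 0.0368). That call was lost with median-of-ratios scaling (adjusted p = 0.0695). APOE and APOB, the lipoprotein proteins that gut also makes, and MBL2, a lectin of the complement system, passed in no comparison. MBL2 stood at 1.83 ± 1.09, 7.64 ± 5.17 and 1.10 ± 1.36 FPKM in Ori, D14FL and D30FL.

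The liver-cell list, enzymes and regulators that hepatocytes use, had its lowest medians in the 3 Ori fish, whereas the members had theirs mostly in D30FL. It had 28 of 38 symbols matched, among them HNF4A, which gut cells also express. The bile transporter symbols SLC10A1, ABCB11 and SLCO1B3 were not matched. The list's summed FPKM was 424 to 642 in Ori, 656 to 761 in D14FL and 420 to 674 in D30FL. Its median relative difference was 0.59 in D14FL minus Ori and 0.68 in D30FL minus Ori. In limma, 3 genes were called in each: G6PC, PCK1 and TDO2, which release glucose, start gluconeogenesis and break down tryptophan. G6PC rose from 5.57 ± 1.35 FPKM to 171 ± 77.1 in D14FL (adjusted p = 0.0041) and PCK1 from 0.690 ± 0.469 to 32.7 ± 31.7 in D30FL (adjusted p = 0.00808). With median-of-ratios scaling the calls of G6PC in D30FL, PCK1 in D14FL and TDO2 in D30FL were lost. The G6PC call in D14FL and the PCK1 call in D30FL held with each library left out in turn. That of TDO2 in D14FL was lost without any of 6 single libraries, that of G6PC in D30FL without any of 4, that of PCK1 in D14FL without any of 7 and that of TDO2 in D30FL without any of 8. CPS1, of the urea cycle, was at 5.62 ± 2.82, 1.85 ± 0.471 and 1.10 ± 0.362 and was not called (adjusted p = 0.053 in D30FL minus Ori), but with median-of-ratios scaling it passed as lower in D30FL (adjusted p = 0.045).

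Among clotting factors, 9 of 14 were matched, and 2 were called higher in D14FL and 3 in D30FL against Ori, with none lower. F3, tissue factor, which starts clotting outside the vessel, rose from 4.66 ± 0.774 FPKM in Ori to 34.1 ± 8.56 in D14FL and 43.7 ± 26.9 in D30FL (limma, adjusted p = 0.02 and 0.0158). F10, whose row best matched factor VII in another database and so is uncertain between these paralogs, rose from 2.54 ± 0.402 to 13 ± 1.44 and 10.5 ± 2.30, and its D30FL call was lost with median-of-ratios scaling (adjusted p = 0.0612). F8, the cofactor of factor IX, was called in D30FL alone, at 0.842 ± 0.120 in Ori and 17.6 ± 17.6 in D30FL. VWF, the platelet tether, was not called, at 6.69 ± 2.03, 8.33 ± 1.24 and 12.8 ± 1.25. The D30FL call of F3 was lost without Ori 1, Ori 3 or D30FL 1, and the other calls of these factors were each lost without any of 5 or 6 single libraries. Unlike for the fibrinogen rows, D14FL 3 lay within the range of the other D14FL fish for F3, at 34.9 against 42.2 and 25.1.

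Of the clotting inhibitors and fibrinolysis genes, 13 of 16 were tested, with 5 called higher in D14FL and 4 in D30FL against Ori. THBD, thrombomodulin, rose from 9.02 ± 1.62 FPKM to 28.6 ± 4.34 and 46.3 ± 15.2 (limma, adjusted p = 0.0316 and 0.00956), and PLAT, tissue plasminogen activator, from 2.03 ± 1.04 to 9.92 ± 0.104 and 11.8 ± 5.01. TFPI, the inhibitor of tissue factor, was called in both, and SERPIND1, heparin cofactor, in D14FL. With median-of-ratios scaling, THBD in D30FL kept its call (adjusted p = 0.0161), while THBD in D14FL (adjusted p = 0.0718), PLAT, TFPI and SERPIND1 did not. Without D30FL 1 the D30FL call of THBD was lost, and its D14FL call was lost without any of 7 single libraries. The remaining gene, PROS1, was called in both comparisons and sits on a row whose best match names another protein. With median-of-ratios scaling it was called in neither (limma, adjusted p = 0.0623 in D14FL and 0.0544 in D30FL).

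Fibrinogen receptors and relatives gave 18 of 24 symbols tested, with 2 called higher in D14FL and 3 in D30FL against Ori. FGL2, fibroleukin, a fibrinogen-domain protein, rose from 3.73 ± 0.532 FPKM to 21.4 ± 1.75 and 23.8 ± 8.01 (limma, adjusted p = 0.00889 and 0.00846). ANGPTL4, a fibrinogen-domain inhibitor of lipoprotein lipase, rose from 1.38 ± 0.168 to 16.0 ± 5.98 and 18.7 ± 9.95 (limma, adjusted p = 0.0151 and 0.0132). MFAP4, a matrix protein of the same domain family, was called in D30FL at 52.0 ± 36.9 against 0.212 ± 0.215. In D14FL it was not called, at 64.5 ± 108, with values of 2.47, 1.34 and 190 in fish 1, 2 and 3. ITGAV, an integrin subunit that binds fibrinogen, was at 1.36 ± 0.355, 5.51 ± 2.09 and 5.77 ± 3.89 and was not called. The D14FL call of FGL2 was lost without D14FL 1 and its D30FL call without D30FL 1. ANGPTL4 lost its D14FL call without Ori 2, Ori 3, D14FL 1 or D14FL 3, and its D30FL call without Ori 1, Ori 3 or D30FL 1. The MFAP4 call was lost with median-of-ratios scaling (adjusted p = 0.0599), and whether the relatives differed from the fibrinogen chains was not tested.

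Acute phase signalling genes, which act upstream of the members in mammalian liver, were tested for 14 of 17 symbols. The symbols IL6 and TNF were not matched. In D14FL 2 were called higher than in the Ori group, and in D30FL 4. Among those called in no comparison were IL6R, IL6ST, IL1B, JAK1, JAK2, STAT3 and CEBPB. CEBPD, a transcription factor of the acute phase, rose from 58.7 ± 14.2 FPKM to 298 ± 150 and 510 ± 264 (limma, adjusted p = 0.0355 and 0.0145). NFIL3 rose in D14FL, from 8 ± 2.81 to 40.0 ± 5.89 (adjusted p = 0.0295), and LIFR, a receptor of the interleukin-6 family, rose in D30FL, from 0.639 ± 0.212 to 8.36 ± 6.10 (adjusted p = 0.0399). CEBPA and SOCS3 completed the D30FL calls, SOCS3 named after its value was seen. With median-of-ratios scaling CEBPD in D30FL stayed called (adjusted p = 0.0227) and CEBPD in D14FL, NFIL3, LIFR, CEBPA and SOCS3 did not. Without Ori 1, Ori 3, D30FL 1 or D30FL 2 the CEBPD call in D30FL was also lost.

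Heme and iron genes, which handle what hemopexin carries, gave no call among 16 tested in limma. At an unadjusted p under 0.05, 7 were higher in D14FL against Ori, and 6 higher and 1 lower in D30FL. Of all tested transcripts, 23.1% and 24.0% had such a p in these comparisons, in either direction. Both counts of higher genes include FTL, whose row best matched a human protein, and HMOX2, whose best match names another protein. SLC40A1, the iron exporter ferroportin, was at 152 ± 77.6, 349 ± 129 and 80.1 ± 37.9 FPKM in the 3 groups. ALAS1, the first enzyme of heme synthesis, was at 33.0 ± 1.15, 86.8 ± 30.9 and 58.7 ± 20.6.

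Markers of other cell types moved between the same fish. Exocrine pancreas markers (11 symbols tested on 10 transcripts, since PNLIPRP1 and PNLIPRP2 share 1) were called higher for 3 transcripts in D14FL and 7 in D30FL against Ori, and their summed FPKM was 77.2 to 150 in Ori, 421 to 9039 in D14FL and 1512 to 4942 in D30FL. Within D14FL the pancreas sum was highest in fish 3, where the members were lowest. Endothelium and macrophage markers (13 tested) had 1 call in each, PLVAP, lost with median-of-ratios scaling, and thrombocyte and erythrocyte markers (6 tested) had 1 in D30FL, GP1BB, on a row whose best match names another protein. HBB, a hemoglobin chain that marks blood in the tissue, was at 15.4 ± 18.2, 43.1 ± 9.77 and 53.1 ± 14.8 FPKM and was not called. HBE1, another hemoglobin chain, whose row best matched a sturgeon beta chain, was not called either and did not share this rise in means. It stood at 33.6, 2.73 and 2.5 FPKM in Ori, 9.12, 10.2 and 17.5 in D14FL, and 10.3, 18.7 and 10.2 in D30FL. Its mean was 12.9 in Ori and 12.3 in D14FL, with Ori 1 the highest fish. Enterocyte markers had no call, and MEP1B, a brush border protease, was at 116 ± 31.3, 175 ± 41.1 and 65.8 ± 13.8. The part of these cell types in the members' levels was not tested.

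Against D14FL, no gene of the 11 lists was called in D30FL. Of the 166 listed transcripts tested, 18 were called higher in D14FL and 27 in D30FL against Ori, and none lower. These are 10.8% and 16.3% of them, beside the 2.17% and 2.49% of all tested transcripts. The lists were chosen with earlier results of these data known, so nothing is read from the higher shares. Exocrine pancreas markers gave 3 of the 18 calls and 7 of the 27. With median-of-ratios scaling 9 (5.42%) were called higher in D14FL and 13 (7.83%) in D30FL, and CPS1 was called lower in D30FL. Of all 54200 tested transcripts, 438 and 546 were called higher under that scaling.

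**Figure D5:**
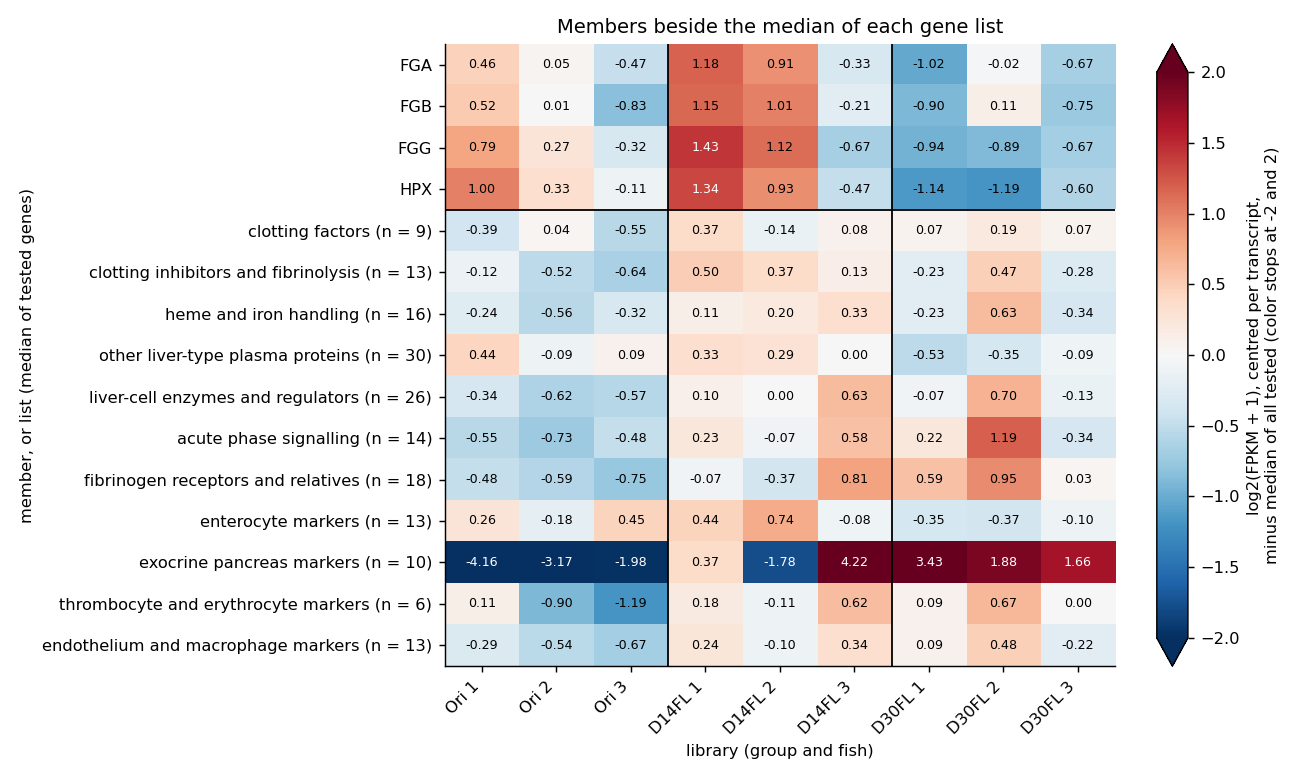
Level in each fish (x axis) of the 4 members and, below the line, of 11 gene lists as the median over their tested genes (y axis), as log2(FPKM + 1) centred per transcript and less the median of all tested transcripts. Numbers in cells are the values, and colour stops at -2 and 2. The members are highest in D14FL 1 and 2, while acute phase signalling is highest in D30FL 2, at 1.19, and pancreas markers in D14FL 3, at 4.22.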

How the data were processed

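Per the labels, gut RNA of 9 fish was selected with oligo(dT) and sequenced as separate libraries. The deposited values are FPKM per assembled transcript, made by the authors; the unit rests on the file's name, and sums of 810895 to 929953 per library would also fit TPM of a filtered list. The submitters' processing notes name cutadapt 1.9 and mm10, with no role for the build. Assembler and quantifier are not given in the sources used, and depth is unknown, so counting intervals are omitted.

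The 54200 transcripts that reached FPKM 1 in 3 or more libraries were fitted with limma 3.58.1 in R 4.3.3 on log2(FPKM + 1), trend included and no block, with 6 residual and 5.73 prior degrees of freedom and two-sided Benjamini-Hochberg adjusted p under 0.05. The fit was tested on simulated data. Python 3.11.15, pandas 2.3.3, numpy 2.4.6 and matplotlib 3.10.9 made summaries and plots. The replicates are separate fish.

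The members and the 11 lists were chosen with earlier results of these data known. Of 239 listed symbols 174 were matched, each by its transcript of highest mean FPKM. Another 15 matches, in which the symbol stood for an unrelated protein, were dropped. Some kept rows still have a best match that names another protein. Among them are CELA1 and CPB1, both counted in the pancreas calls of D30FL against Ori. Results of some listed genes are not reported here. Per list, up to 4 genes with the smallest p were named, plus the 10 and 5 transcripts most correlated with the fibrinogen chains and HPX. Alternatives were another pseudocount (0.1), scalings, filters, summed rows, a block and each library left out.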

Additional observations from a re-analysis of the deposited data

How the results depend on the processing

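The 12 group differences of FGA, FGB, FGG and HPX were recomputed 159 times under other settings, and 3 moved by more than 1 SD between fish. With a pseudocount of 0.1 the D30FL minus Ori difference was -1.44 for FGG and -1.84 for HPX, and with 1 library left out that of FGG ranged from -1.36 to -0.81. The sign changed for HPX alone, in D14FL minus Ori without Ori 3 or without D14FL 1. No member row was called under any setting, although no member was left to test where a mean FPKM of 5 was required.

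Counts of calls were less stable. Of 54200 transcripts, 1501 were called in D14FL minus Ori, 897 with quantile scaling, 315 with the replicate block and 138 to 3763 with 1 library left out. In D30FL minus Ori the count was 1746, with 937 under quantile scaling, 357 under the replicate block and 98 to 6605 with 1 library left out. In D30FL minus D14FL it was 1, and 0 to 2 with 1 library left out. Among listed transcripts, 18 were called in D14FL minus Ori, 9 with median-of-ratios scaling, 9 with quantile scaling, 8 with the replicate block and 2 to 31 with 1 library left out. In D30FL minus Ori 27 were called, 14 with median-of-ratios scaling, 11 with quantile scaling, 12 with the replicate block and 3 to 50 with 1 library left out. The cause was not tested. Of 40 calls of named list genes, 5 held in every setting, among them G6PC in D14FL, PCK1 in D30FL and the transcript shared by PNLIPRP1 and PNLIPRP2, counted under both, in D14FL. Deviations of same-numbered fish from their group means correlated at -0.315 to 0.0843, and those of differently numbered fish at -0.0913 to 0.277. With 3 fish per group these values cannot tell whether same-numbered fish share a batch. Depth is unknown, so values near or under 1 FPKM, such as the second FGA row, carry an error that cannot be given.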

Other observations

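A few plasma and iron proteins had their highest level in D30FL 2, the fish whose FGA and FGB stood above the other D30FL fish while its HPX did not. These genes were singled out after their values were seen, and none was called in limma. A peak in this fish is not particular to them. Its list medians were also the highest for acute phase signalling (1.19), fibrinogen receptors and relatives (0.95) and liver-cell genes (0.70). For enterocyte markers its median was the lowest (-0.37). D30FL 2 also had the most transcripts at an FPKM of 1, 49503. HP, haptoglobin, which binds free hemoglobin, was at 103 FPKM in D30FL 2 and at 0.640 to 12.2 in the other 8 fish. TF, the iron carrier transferrin, was at 43.4 there and at 0.5 to 6.72 elsewhere. The serotransferrin-2 row named above did not share this peak, at 4.38 and 4.21 in D14FL 1 and 2 and 1.72 in D30FL 2. Both of these rows best matched hypothetical proteins. HAMP, hepcidin, which limits iron export, was at 21.6 in D30FL 2 and at 0.5 to 5.11 elsewhere. CP, the copper ferroxidase ceruloplasmin, was at 11.3 there and at 0.463 to 2.27 elsewhere. HPX was at 1.58 in the same fish, the second lowest of 9.

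SAA1, serum amyloid A, an acute phase protein in mammals, stood at 23.2 and 20.5 FPKM in D14FL 1 and 2 and at 1.21 to 3.96 in the other 7 fish. Its 2 highest fish were those of the fibrinogen chains and HPX. F2, prothrombin, whose product thrombin cuts fibrinogen, did not follow them: it was at 11.4, 6.60 and 4.44 in Ori, 9.78, 7.36 and 9.06 in D14FL, and 7.55, 7.83 and 7.15 in D30FL.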
